A study of Mus musculus with 15 samples.

Results

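Macrophages carry a program set by the tissue they live in, and the comparison described here asks what the macrophages of sympathetic nerve tissue and of fat share when they are set against those of spleen and brain. The nerve and fat side comprised 9 of the 15 libraries of the series, namely sympathetic ganglia (SAM_ganglia, n = 3), sympathetic nerve fibers dissected out of subcutaneous fat (SAM_fibers, n = 2), the subcutaneous fat itself (sATM, n = 2) and visceral fat (vATM, n = 2). The other side comprised the remaining 6, spleen macrophages (SpM, n = 3) and microglia of the brain (Microglia, n = 3). The 4 nerve and fat groups were weighted equally, as were the 2 reference groups, so that no group counts more for having more libraries. All cells were sorted as positive for both F4/80 and CD45, a macrophage and a leukocyte surface protein, from C57BL/6J mice, and were profiled without culture. The sample titles carry the tag ND in every group, which the labels do not expand, and they give neither age nor sex. The tissues came from 10 mice, and the labels do not say which mice gave which library, so p-values cover only how far libraries of a group scatter, which may be technical scatter.

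As background, macrophages that settle in a tissue take on features from local signals. Microglia depend on signals of the brain and are known for purine receptors and the transcription factor Sall1, while red pulp macrophages of the spleen clear aged red cells and export iron through ferroportin. Macrophages of connective tissue, nerve and fat are known for scavenging receptors such as Mrc1, Cd163 and Folr2 and for lectins such as Mgl2 and Clec10a. Immediate-early genes such as Fos, Egr1 and Dusp1 are transcribed within minutes of a stimulus, including tissue dissociation, and heat-shock chaperones are transcribed when proteins misfold.

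Spleen, brain and both fats were digested with collagenase for 30 minutes, the fibers with hyaluronidase for 30 minutes and then collagenase for 15, and the ganglia with collagenase for 10 minutes and then trypsin for 30, all at 37 °C. The fat groups thus share their digestion with the reference groups, and the nerve groups do not. The counts per library ranged from 2.55 to 12.5 M (M for mega), of which 46.1% to 71.5% fell on 3 loci that take up ribosomal RNA (Rn45s, Lars2, Mir6236) and 1.2 to 4.82 M on other genes. DNA background was read as raw counts over 1107 olfactory receptor genes per M raw counts. It was highest in SAM_fibers 1 (1171), Microglia 2 (1043), SAM_ganglia 3 (820.6) and SAM_fibers 2 (659), and lowest in vATM 1 (31.59). The 2 fiber libraries correlated at r = 0.768 over log2 counts, against 0.887 to 0.981 for the other pairs within a group, as a description across genes.

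Levels are counts per M counts after scaling (CPM), and changes are log2 fold changes ± standard error (SE) from 1 edgeR model over all 15 libraries. Calls required a Benjamini-Hochberg adjusted p below 0.05 together with a log2 change of at least 1 in size. By that rule 1131 of 15289 genes rose in nerve and fat macrophages (7.4% of genes tested) and 1053 fell (6.89%), 14.3% in either direction. The call averages over groups, so a stricter description was added, in which all 9 nerve and fat libraries lie on the same side of all 6 spleen and brain libraries. It held for 337 of the genes called higher (2.2% of genes tested) and for 196 of those called lower (1.28%), and these are called separated below. Without the call, all 9 libraries lay above the 6 in 363 genes (2.37%) and below them in 235 (1.54%). Spleen and microglia differed from each other too, with 887 genes higher in spleen (5.8%) and 812 higher in microglia (5.31%), and 45 and 44 of the 337 separated higher genes were among these. Among the separated genes the higher ones changed more, with a median log2 change of 3.70 against -1.89 for the lower ones. In 135 of the 337 the lowest nerve or fat group mean was at least 4 times the higher of the spleen and brain means, which was so for 15 of the 196 in the other direction. For these margins, group means under 0.897 CPM (3 counts in the smallest library) were set to that level. Without SAM_fibers 2 the calls numbered 1042 higher and 2193 lower. On RPKM values the split was 882 higher to 1858 lower with a pseudocount of 0.1, and 734 to 1481 with a pseudocount of 1. Raw counts before the removal of DNA reads gave 320 higher and 186 lower. With the fat groups alone on the nerve and fat side, 323 of the 337 separated higher genes and 141 of the 196 separated lower genes were still called. Separation already placed every fat library beyond all 6 reference libraries, so these 2 counts are no independent check.

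**Figure D1:**
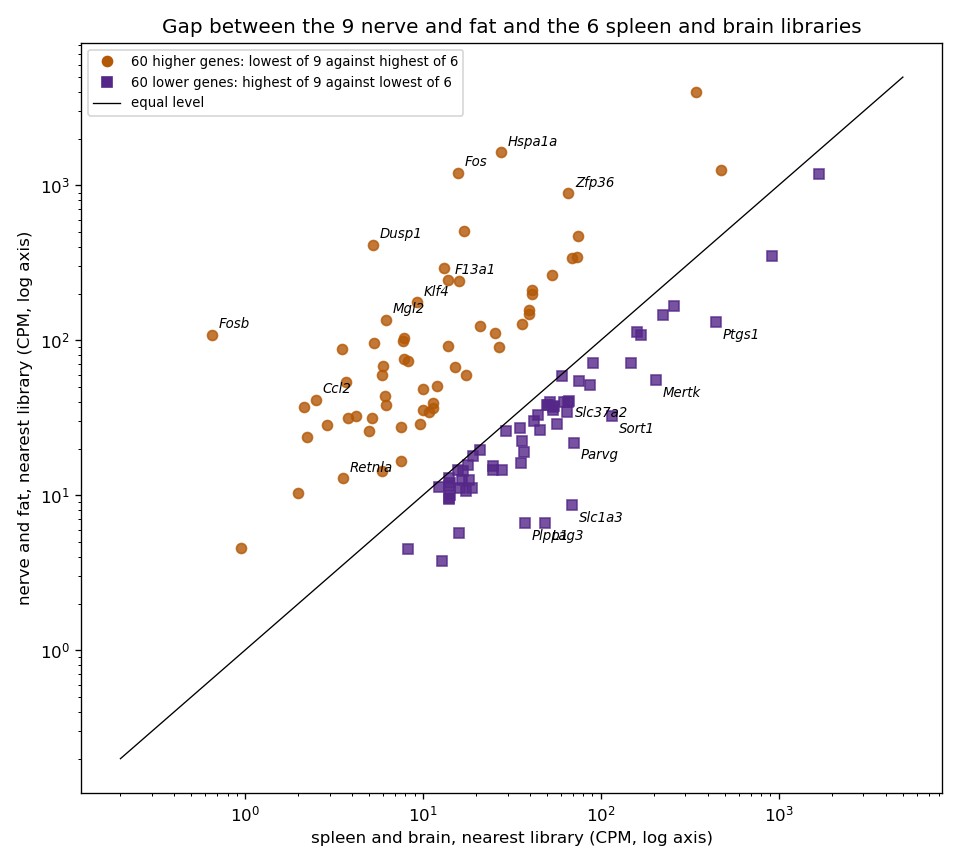
For the 60 separated genes with the largest margins in each direction, the nearest nerve and fat library (vertical axis, CPM, log axis) is plotted against the nearest spleen and brain library (horizontal axis, CPM, log axis). Circles are higher genes (lowest of 9 against highest of 6), squares are lower genes (highest of 9 against lowest of 6), and the line marks equal levels; Fosb, Dusp1, Fos and Hspa1a lie far above the line, while the lower genes stay closer to it.

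The shared program was led by genes of the immediate response to stimuli. With group means floored at 0.897 CPM, the gene with the widest margin was Dusp1 (chromosome 17, 26505591 to 26508472), a phosphatase that switches off MAP kinases. It measured 682, 746 and 835 CPM in ganglia, 1945 and 2058 in fibers, 686 and 528 in sATM, and 542 and 412 in vATM. The spleen libraries had 2.91, 4.16 and 2.59 CPM and the microglia 5.28, 0.561 and 3.95. The lowest nerve or fat group mean was 146 times the higher reference mean, and the log2 change was 7.90 ± 0.35 (edgeR adjusted p = 4.46e-10). Fosb came next at 134 times, with a lowest group mean of 120 CPM. Its reference means of 0.33 in spleen and 0.21 in microglia lay under the floor, and without the floor its margin exceeded that of Dusp1.

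Fos (chromosome 12, 85473901 to 85477270), a subunit of the transcription factor AP-1, measured 3881, 3071 and 2842 CPM in ganglia, 5863 and 6643 in fibers, 2031 and 1487 in sATM, and 1508 and 1201 in vATM. It had 2.25, 7.77 and 0.152 CPM in spleen and 14.4, 15.7 and 13.2 in microglia. The groups did not overlap, the fibers were highest, and the log2 change was 8.54 ± 0.52 (edgeR adjusted p = 1.27e-08). Of the 12 listed AP-1 genes, 11 passed the filter on low counts and 10 rose, 6 of them separated, while none fell. The members named after Fos were Fosb (log2 change 9.62 ± 0.39), Atf3 (7.08 ± 0.23), Jun (5.54 ± 0.29), Jund (4.12 ± 0.22) and Junb (4.10 ± 0.21), the dimer partners that make up AP-1. The smallest called change of the list was in Batf3 (1.16 ± 0.25), which was 36.4 to 148 CPM on the nerve and fat side by group mean and 43.6 in spleen.

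Of 21 other immediate-early genes, 18 rose and none fell, and 12 were separated. They included the zinc-finger factors Egr1 (6.41 ± 0.30) and Egr2 (4.84 ± 0.39), the Krüppel-like factors Klf4 (6.07 ± 0.27), Klf2 (5.89 ± 0.30) and Klf6 (3.34 ± 0.29), the nuclear receptor Nr4a1 (5.56 ± 0.39) and Ier2 (4.18 ± 0.22). Klf4 was 176 to 742 CPM over the 9 libraries and 3.37 to 9.31 over the 6. The 3 members not called were Srf, which encodes a factor that acts on these genes (0.69 ± 0.52), Myc (0.03 ± 0.31) and Arc, whose log2 change was 1.46. Myc had group means of 11.7 to 20.4 CPM on the nerve and fat side, 21.6 in spleen and 10.6 in microglia.

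Most genes listed as feedback inhibitors of such responses moved in the same direction. Of 23 listed feedback inhibitors, 17 rose and none fell, 12 of them separated, with a median log2 change of 2.65 against -0.13 over all genes tested. Zfp36, whose protein degrades cytokine mRNAs, measured 1737, 1141 and 1255 CPM in ganglia, 3489 and 3643 in fibers, 986 and 977 in sATM and 1112 and 888 in vATM, above 37.6 to 65.7 in spleen and 42.9 to 59.8 in brain. Its log2 change was 4.88 ± 0.21. The NF-kB regulator genes Nfkbiz (4.44 ± 0.30), Nfkbid (4.39 ± 0.27), Nfkbia (2.47 ± 0.24) and Tnfaip3 (2.65 ± 0.29), and Socs3 of the cytokine pathways (4.11 ± 0.28), were separated as well. Dusp6, which acts on the kinase ERK, was not called (-0.24 ± 0.26) and was at 314 CPM in microglia against 76.4 to 240 in the 4 groups.

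With the fat groups alone, 9 of 11 AP-1 genes, 16 of 21 other immediate-early genes and 17 of 23 feedback inhibitors were called higher. These genes also differed between the 4 groups, with 8 AP-1, 13 other immediate-early and 15 feedback genes differing among them, and the summed level of the other immediate-early list was 10593 to 14837 CPM in fibers, 1839 to 3468 in the other 3 groups and 225 to 337 in spleen and brain. The part that digestion, dissection time or cell sorting has in these levels was not tested.

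**Figure D2:**
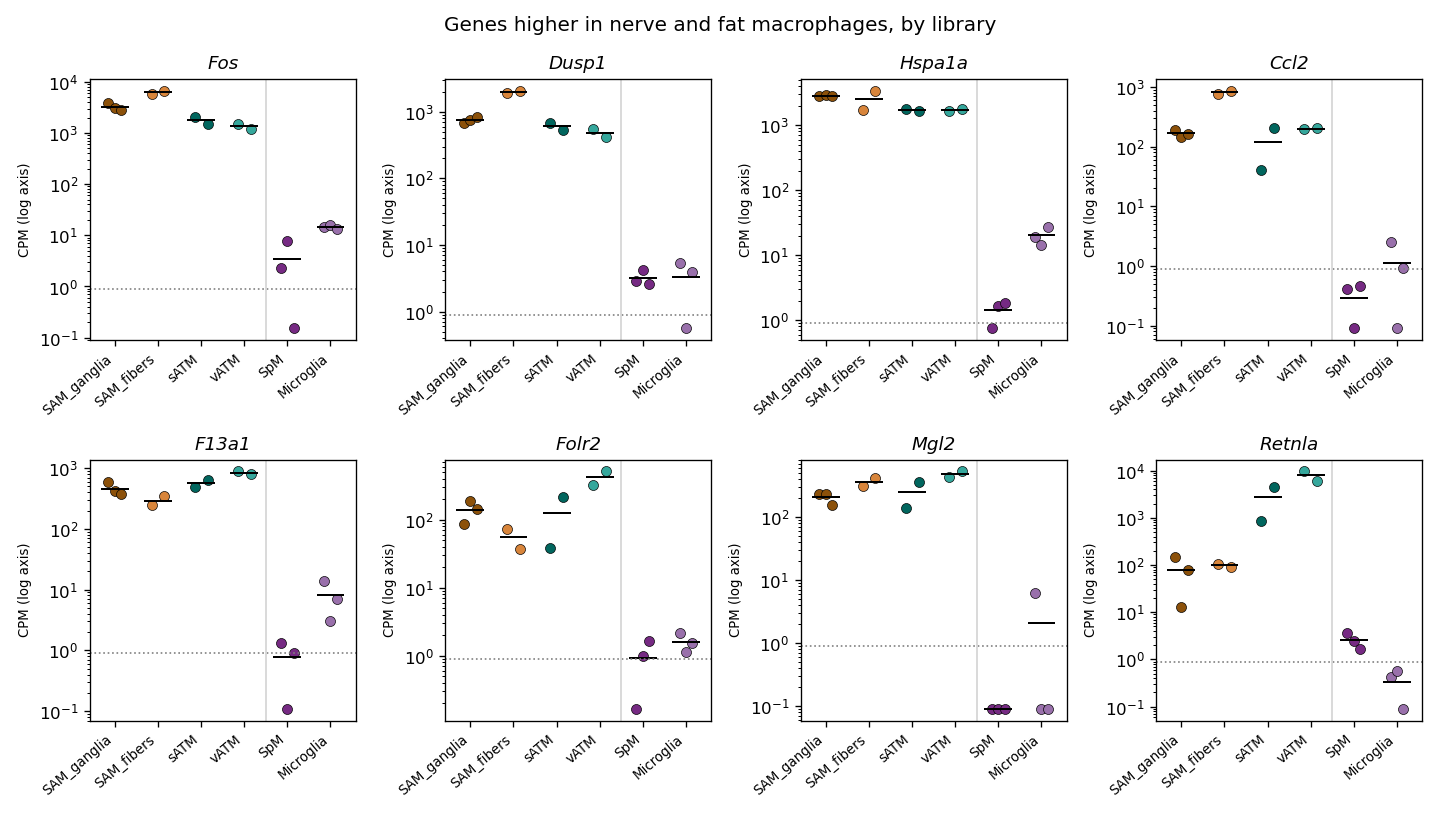
Levels of 8 separated higher genes (CPM, log axis, 1 panel per gene) in each library, by group on the horizontal axis. Points are libraries, black bars are group means, the dotted line marks 0.897 CPM (3 counts in the smallest library) and zeros and values far under it are drawn near the foot of the panel; in every panel the nerve and fat points lie above the spleen and brain points, and Retnla is 79.8 and 98.4 CPM in the nerve group means against 2720 and 7874 in those of fat.

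The sequences upstream of these genes were read from RefSeq (GRCm38.p6) as the 250 bases before the annotated start, for the 249 of 337 separated higher genes, 149 of 196 separated lower genes and 11673 of 15289 tested genes that matched a promoter entry. Both strands were searched for the cyclic AMP response element TGACGTCA (CRE), the AP-1 site TGANTCA, the serum-response CArG box, an NF-kB motif and the heat-shock element. The letters of the CRE do not contain the AP-1 site. The CRE stood in 4.42% of separated higher promoters, in 0% of separated lower ones and in 2.66% of all. The AP-1 site stood in 11.2%, 4.7% and 6.47% in the same order, the CArG box in 4.82%, 2.01% and 1.39%, the NF-kB motif in 14.5%, 12.1% and 9.5%, and the heat-shock element in 0.402%, 0.671% and 0.54%. A gene with more than 1 promoter entry counted as holding a motif if any entry did, so the shares also depend on entries per gene. These shares are descriptions without a test, and a match is not a site of binding. For the windows below, the entry nearest the gene's start in the count data was used. The windows below belong to separated higher genes of the lists above that hold a CRE (Dusp1, Btg2, Ppp1r15a), a CArG box (Egr2, Zfp36, Dusp5) or an NF-kB motif (Nfkbia), were chosen after their values were seen, and have the matched letters in capitals. Of the 31 windows of listed separated genes that were read, 18 held none of the motifs, those of Jun, Junb, Atf3, Klf4 and Nr4a1 among them. NF-kB motifs also stood upstream of Fos, Fosb, Ier3, Hspa1a, Hspa1b and Tnfaip3, the last with an AP-1 site as well.
Dusp1, minus strand, chr17:26508473-26508722, CRE at 143 bases upstream: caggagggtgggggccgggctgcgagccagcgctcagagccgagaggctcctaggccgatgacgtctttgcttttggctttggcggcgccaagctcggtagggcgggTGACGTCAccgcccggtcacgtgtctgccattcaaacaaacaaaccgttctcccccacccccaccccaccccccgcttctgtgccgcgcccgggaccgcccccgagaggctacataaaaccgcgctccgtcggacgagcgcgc
Btg2, minus strand, chr1:134079156-134079405, CRE at 166 bases upstream: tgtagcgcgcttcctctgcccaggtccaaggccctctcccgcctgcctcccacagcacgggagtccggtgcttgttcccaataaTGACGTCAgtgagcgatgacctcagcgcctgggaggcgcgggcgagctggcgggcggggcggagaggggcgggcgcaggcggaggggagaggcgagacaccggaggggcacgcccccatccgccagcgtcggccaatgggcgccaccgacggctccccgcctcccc
Ppp1r15a, minus strand, chr7:45526269-45526518, CRE at 12 bases upstream: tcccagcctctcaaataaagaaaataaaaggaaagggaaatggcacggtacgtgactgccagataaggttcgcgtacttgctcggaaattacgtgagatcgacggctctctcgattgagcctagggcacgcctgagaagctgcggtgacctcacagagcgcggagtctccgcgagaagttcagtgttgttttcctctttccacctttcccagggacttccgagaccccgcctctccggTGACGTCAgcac
Egr2, plus strand, chr10:67537619-67537868, CArG box at 72 bases upstream: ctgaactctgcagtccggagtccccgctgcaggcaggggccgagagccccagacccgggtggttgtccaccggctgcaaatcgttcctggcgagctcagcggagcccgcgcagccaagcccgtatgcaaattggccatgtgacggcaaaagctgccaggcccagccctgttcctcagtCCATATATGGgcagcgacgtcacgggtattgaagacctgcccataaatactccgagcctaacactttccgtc
Zfp36, minus strand, chr7:28379229-28379478, CArG box at 58 bases upstream: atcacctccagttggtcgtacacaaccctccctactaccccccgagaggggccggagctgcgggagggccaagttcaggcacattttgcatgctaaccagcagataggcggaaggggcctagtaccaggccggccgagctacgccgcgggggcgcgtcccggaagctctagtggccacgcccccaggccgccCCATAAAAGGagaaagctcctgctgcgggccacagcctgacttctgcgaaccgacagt
Dusp5, plus strand, chr19:53528895-53529144, CArG boxes at 82 and 72 bases upstream: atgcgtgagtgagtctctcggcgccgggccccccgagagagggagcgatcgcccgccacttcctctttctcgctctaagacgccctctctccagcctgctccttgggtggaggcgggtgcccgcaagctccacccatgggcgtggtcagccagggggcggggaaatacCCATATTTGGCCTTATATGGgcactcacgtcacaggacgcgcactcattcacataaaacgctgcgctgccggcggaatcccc
Nfkbia, minus strand, chr12:55492648-55492897, NF-kB motif at 29 bases upstream: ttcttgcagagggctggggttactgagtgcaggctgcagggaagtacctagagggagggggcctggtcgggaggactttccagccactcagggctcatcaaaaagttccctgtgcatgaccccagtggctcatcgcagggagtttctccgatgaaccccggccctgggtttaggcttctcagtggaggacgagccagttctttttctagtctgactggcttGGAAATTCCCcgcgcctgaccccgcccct

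Of the 11 separated higher genes with a CRE, the 3 whose windows are printed differ in how far they moved. Dusp1 changed by 7.90, Ppp1r15a, which restarts translation after stress, by 4.17 ± 0.44, and Btg2, a brake on cell division, by 2.94 ± 0.19. Dusp5, which holds 2 CArG boxes side by side, changed by 5.10 ± 0.78 at group means of 1.05 to 18.8 CPM, and Egr2 by 4.84 at means of 42.4 to 454.

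Among heat-shock chaperones the inducible HSP70 genes had the largest changes. Hspa1a (chromosome 17, 34969359 to 34972156), the inducible HSP70, measured 2854, 2860 and 2780 CPM in ganglia, 1738 and 3365 in fibers, 1799 and 1650 in sATM, and 1637 and 1773 in vATM. It had 0.748, 1.64 and 1.83 CPM in spleen and 18.9, 14.3 and 27.5 in microglia, and its log2 change was 8.66 ± 0.30 (edgeR adjusted p = 5.88e-11). Of the AP-1, immediate-early and chaperone genes given by library, Hspa1a had the most even level over the 4 groups, whose means ran from 1705 to 2831 CPM. Hspa1b is a near-identical copy, so the split of reads between the 2 is uncertain, and its log2 change was 8.30 ± 0.39. Of the 250 bases upstream, which bear on the promoters and not on the reads, 247 are the same. Of 18 chaperone genes, 9 were called higher and 1 lower. The co-chaperones Dnajb1 (2.55 ± 0.21) and Hsph1 (2.51 ± 0.26) rose, and the constitutive Hspa8 (1.79 ± 0.28) and Hsp90ab1 (1.27 ± 0.19) rose less. Hspa5, the chaperone of the endoplasmic reticulum (0.40 ± 0.24), and Hspd1 of mitochondria (0.71 ± 0.30) were not called.

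The 1 chaperone called lower, Hsp90aa1 (edgeR adjusted p = 0.000556), was listed at 0 in every library of ganglia, sATM and vATM in the corrected table. Its raw counts went the other way, at 2182 to 9307 in those 3 groups and 188 to 590 in spleen and brain, and the raw table gave a log2 change of 3.71. The corrected and the raw values of this gene thus point in opposite directions.

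The cytokines and chemokines of the inflammatory response formed the next group. Il1b, a fever-inducing cytokine, measured 589, 369 and 503 CPM in ganglia, 1050 and 3070 in fibers, 245 and 181 in sATM and 170 and 153 in vATM, above 25.6, 54.7 and 18.4 for spleen and 3.63, 1.68 and 3.04 for brain. Its log2 change was 5.45 ± 0.35, and all 9 libraries stood above the 6. Of 14 cytokine genes tested, 6 rose and 2 fell. Tnf rose by 4.09 ± 0.34, Osm by 3.78 ± 0.34 and the prostaglandin synthase gene Ptgs2 by 7.01 ± 0.70. Il18, a partner of the inflammasome, fell by 2.45 ± 0.23 on the log2 scale, at 9.86 to 18.5 CPM by group mean against 181 in spleen and 22.7 in microglia. Il1a was also called lower (-1.75 ± 0.47), although it was at 142 CPM in fibers.

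Among CC chemokines, which draw monocytes and other leukocytes, 12 of 13 rose and none fell, 6 of them separated, with a median log2 change of 5.54. Ccl2 measured 194, 145 and 165 CPM in ganglia, 778 and 863 in fibers, 41.3 and 202 in sATM, 197 and 203 in vATM, and no more than 2.51 in any of the 6 spleen and brain libraries. Its log2 change was 8.52 ± 0.57. Ccl7 (8.48 ± 0.69), Ccl8 (8.70 ± 0.65), Ccl3 (6.41 ± 0.29), Ccl4 (5.54 ± 0.29) and Ccl6 (2.97 ± 0.28) were separated as well. Ccl9 (4.75 ± 0.33) and Ccl12 (5.19 ± 0.44) rose but overlapped with microglia. Ccl2 and Ccl7 were the chemokines with the widest margins, and both bind the receptor Ccr2, which is described with the monocyte genes.

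Of 11 CXC chemokine genes tested, 6 rose and none fell. Pf4, a platelet factor also made by macrophages (6.72 ± 0.45), and the neutrophil attractant Cxcl1 (7.27 ± 0.63) were separated. Cxcl16 (3.08 ± 0.28) and the interferon-induced Cxcl10 (2.95 ± 0.37) were higher without separation. Cxcl2, another neutrophil attractant, was not called, and it was listed at 0 in both fat groups where its raw counts were 407 to 5405. Its raw counts were 1023 to 27105 in the nerve groups and 2 to 30 in spleen and brain.

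The scavenging receptors and lectins of resident macrophages rose with 13 of 20 genes, against 2 that fell. Mrc1, the mannose receptor, was called higher (2.27 ± 0.34, edgeR adjusted p = 0.000164) but was not separated. It measured 1667, 1071 and 783 CPM in ganglia, 404 and 928 in fibers, 334 and 524 in sATM, and 834 and 747 in vATM. The spleen had 1135, 855 and 695 CPM, within that range, and the microglia had 49.2, 12.1 and 11.7. Set against spleen alone its log2 change was -0.32. Cd163, the hemoglobin scavenger receptor, had the same pattern, with group means of 45.8 to 144 CPM in nerve and fat, 91.7 in spleen and 1.05 in microglia (3.15 ± 0.33). For both receptors the call thus rests on microglia.

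Other receptors were low in both references. Folr2, a folate receptor, measured 86.3, 189 and 145 CPM in ganglia, 72.9 and 37.3 in fibers, 38.5 and 213 in sATM, 326 and 515 in vATM, and 0.166 to 2.16 over the 6 libraries of spleen and brain (6.86 ± 0.52). The fatty acid receptor Cd36 was 95.9 to 485 CPM against 2.28 to 5.33 (6.05 ± 0.30). The lectins Clec10a (7.38 ± 0.60) and Cd209a (5.74 ± 0.35) and the hyaluronan receptor Lyve1 (5.15 ± 0.57) were separated too. Stab1, another scavenger receptor, rose (3.62 ± 0.33) but stood at 95.3 CPM in microglia. Timd4, which binds phosphatidylserine, was not called (0.64 ± 0.45). Marco and Fcna, known from splenic macrophages, were the 2 that fell.

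Of 19 secreted and other genes of resident macrophages, 12 rose and none fell. Against spleen alone 10 were called higher and 5 lower, and against microglia alone 11 and 1. For the 20 receptors of the paragraphs above the counts were 9 higher and 4 lower against spleen, and 16 and 0 against microglia. F13a1 (chromosome 13, 36867178 to 37049213), the A subunit of coagulation factor XIII, measured 586, 423 and 368 CPM in ganglia, 244 and 342 in fibers, 492 and 648 in sATM, and 884 and 799 in vATM. The spleen had 1.33, 0.109 and 0.913 CPM and the microglia 13.9, 3.09 and 6.99 (7.58 ± 0.42, edgeR adjusted p = 4.79e-09). Dab2, an adaptor of endocytosis (6.42 ± 0.37), Cbr2, a carbonyl reductase (5.58 ± 0.41), the lipid transfer protein gene Pltp (3.41 ± 0.29) and complement C4b (3.26 ± 0.36) were separated. Maf (-0.55 ± 0.23), Selenop (0.39 ± 0.21) and Igf1 (1.14 ± 0.45) were not called, and Igf1 was at 418 CPM in spleen against 59 to 193 in the 4 groups.

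Genes of alternative activation, the response to interleukin 4 and 13, rose with 7 of 12 tested and fell with 1. Mgl2, a galactose-binding lectin, measured 232, 233 and 152 CPM in ganglia, 304 and 420 in fibers, 136 and 356 in sATM, 429 and 526 in vATM, no more than 0.0832 in spleen, and 6.23, 0 and 0 in microglia (9.69 ± 0.79). Retnla, which encodes RELM-alpha, was separated (9.41 ± 0.71) but very unequal, with 150, 12.9 and 76.8 CPM in ganglia, 106 and 91 in fibers, 837 and 4602 in sATM and 9629 and 6120 in vATM. Irf4, a transcription factor of that response, rose by 2.59 ± 0.25. Arg1, an enzyme often used as a marker of it, was not called (1.66 ± 1.01) and had group means of 1.34 to 16.3 CPM. Il4ra, the receptor subunit itself, was not called (0.30 ± 0.22). Tgm2 fell by 2.81 ± 0.33 on the log2 scale.

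MHC class II genes, whose products present antigen, rose with 7 of 11 members, while 3 were not called and 1 fell. H2-Ab1 measured 4461, 4740 and 5374 CPM in ganglia, 3895 and 6358 in fibers, 2172 and 6930 in sATM, and 6024 and 6076 in vATM, above 729, 1195 and 761 in spleen and 95.8, 25.5 and 21 in microglia (4.63 ± 0.40). H2-Eb1 (4.86 ± 0.39), H2-Aa (4.57 ± 0.44) and Cd74, the invariant chain (4.29 ± 0.39), behaved alike, and their differences between nerve and fat were 0.11, 0.14 and -0.04 on the log2 scale, none of them called. Their activator gene Ciita rose by 3.62 ± 0.25. The one that fell was H2-Oa, which modulates peptide loading (-1.59 ± 0.51).

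Of 14 monocyte genes, 10 rose and none fell, 5 of them separated. Ccr2, the chemokine receptor of recruited monocytes, measured 818, 509 and 476 CPM in ganglia, 198 and 336 in fibers, 1031 and 1027 in sATM, and 961 and 688 in vATM, against 1.2 to 8.32 in spleen and 3.93 to 40.9 in microglia (6.10 ± 0.55). Lyz2, lysozyme of myeloid cells, was 4004 to 11025 CPM in the 9 libraries and 94.1 to 342 in the 6 (5.30 ± 0.22). The calcium-binding S100a4 (5.83 ± 0.26) and S100a6 (5.95 ± 0.53) and Lyz1 (6.74 ± 0.63) were separated as well. Ly6c2, which marks the classical subset, rose (3.24 ± 0.45) with 21 CPM in ganglia, 204 in fibers, 170 in sATM and 2.67 in vATM, the last below the 4.47 of microglia. Since each library is a bulk of sorted cells, a higher share of a cell type and more RNA of these genes per cell cannot be told apart.

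The genes of the proteins used to sort the cells were not called. Adgre1, which encodes F4/80, changed by -0.57 ± 0.16, with group means of 161 to 366 CPM in nerve and fat, 538 in spleen and 187 in microglia. Ptprc, which encodes CD45, changed by 0.01 ± 0.21, which averages -1.07 against spleen alone and 1.08 against microglia alone. Adgre1 changed by -1.33 against spleen alone and by 0.19 against microglia alone. Of 18 macrophage core genes, 1 rose and 4 fell. The gene that rose was Cebpb, a myeloid transcription factor (3.12 ± 0.33). Csf1r, the receptor that macrophages need to live, fell by 1.46 ± 0.16 on the log2 scale, with 836 to 2481 CPM by group mean against 2955 in spleen and 4412 in microglia. Lgmn, a lysosomal protease (-1.72 ± 0.18), and Aif1 (-1.08 ± 0.16) were the others besides Mertk, which is described next.

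The lower side of the program held fewer wide margins. Lag3, an immune checkpoint receptor, measured 1.85, 6.64 and 1.2 CPM in ganglia, 0 and 3.54 in fibers, 0 and 1.15 in sATM, and 0.958 and 1.84 in vATM. It was 61, 51.9 and 48.8 CPM in spleen and 122, 214 and 158 in microglia, a log2 change of -5.86 ± 0.48 (edgeR adjusted p = 2.99e-07). Slc1a3, a glutamate transporter, was 0 to 8.67 CPM in the 9 libraries and 69.2 to 133 in the 6 (-6.06 ± 0.36). Mertk, the receptor that recognises dying cells, measured 45.9, 50.5 and 55.6 CPM in ganglia, 3.29 and 28.3 in fibers, 4.33 and 22.5 in sATM and 15.2 and 23.7 in vATM, below 352, 442 and 279 for spleen and 213, 229 and 206 for brain (-3.68 ± 0.37).

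The next lower genes by margin were Plpp1, a lipid phosphatase (-4.00 ± 0.21), the sulfatase gene Arsg (-3.44 ± 0.49), the sorting receptor gene Sort1 (-3.76 ± 0.31), Parvg of the cytoskeleton (-3.95 ± 0.32) and the ephrin gene Efnb1 (-2.76 ± 0.46). Ptgs1, the constitutive prostaglandin synthase, was 17.6 to 131 CPM in the 9 libraries and 447 to 593 in the 6 (-2.65 ± 0.24), opposite in direction to Ptgs2. The long noncoding Snhg20 (-2.85 ± 0.24), the galactosyltransferase gene B4galt4 (-2.85 ± 0.35), the sugar phosphate transporter gene Slc37a2 (-2.07 ± 0.52), the cytokine gene Clcf1 (-2.87 ± 0.56) and the tetraspanin gene Tspan4 (-2.78 ± 0.24) were also among the 15 widest. Sirpa, the inhibitory receptor for CD47, had a narrow spread, at 180 to 349 CPM in the 9 libraries and 925 to 1390 in the 6 (-2.02 ± 0.14). The aspartic protease gene Ctsd was also separated (-2.65 ± 0.26), at 251 to 1184 CPM against 1678 to 7204.

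**Figure D3:**
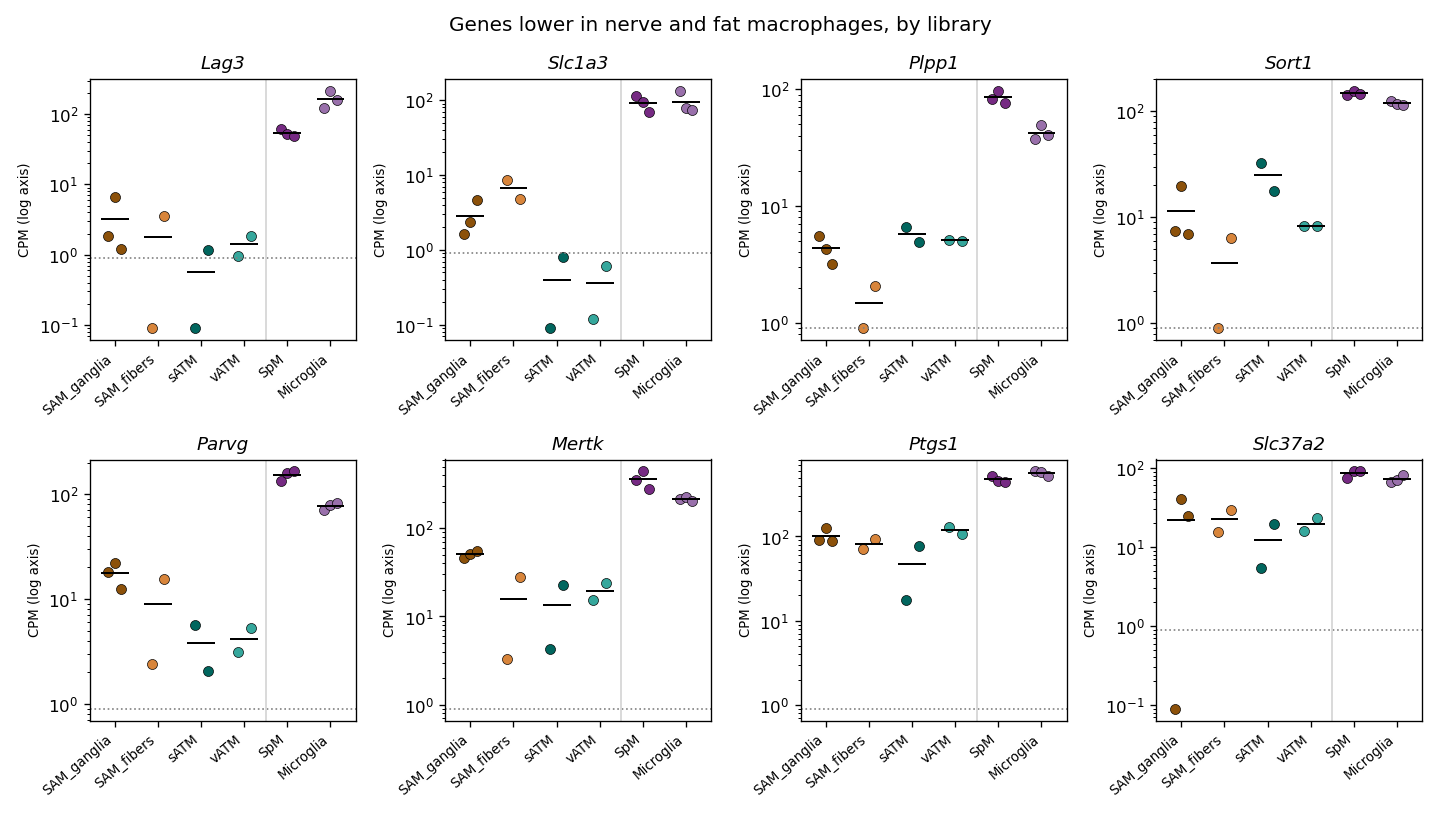
Levels of 8 separated lower genes (CPM, log axis, 1 panel per gene) in each library, by group on the horizontal axis, with black bars for group means. The dotted line marks 0.897 CPM and zeros are drawn near the foot of the panel; Lag3 and Slc1a3 fall under that line in some nerve and fat libraries, while Ptgs1 keeps 17.6 to 131 CPM in all 9.

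Genes that mark each reference tissue were among the lower calls. Of 17 microglial genes, 8 fell and 2 rose. P2ry12, a purine receptor, was at 205, 24.3, 9.31 and 30.3 CPM by group mean in ganglia, fibers, sATM and vATM, 71.6 in spleen and 3932 in microglia (-3.94 ± 0.19). P2ry13, its neighbour on chromosome 3, was separated, at 3.22 to 145 CPM in the 9 libraries and 225 to 1039 in the 6 (-4.22 ± 0.26). Tmem119 (-3.69 ± 0.31) was at 1351 CPM in microglia and 150 in ganglia, and set against spleen alone it changed by 0.72. Gpr34 fell by 2.23 ± 0.19 on the log2 scale. The 2 that rose, Fcrls (4.24 ± 0.43) and Trem2 (2.65 ± 0.36), were near 0 in spleen and highest in microglia, so that against microglia alone they changed by -1.78 and -3.80.

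Of 15 red pulp genes, 7 fell and 1, Cd163, rose. Slc40a1, the iron exporter ferroportin, was 7.89 to 71.6 CPM in the 9 libraries, 148 to 162 in microglia and 3340 to 6274 in spleen, so that it was separated (-5.15 ± 0.19). Kcnj10, a potassium channel gene, was listed at 0 in fibers, and its raw counts were 6 to 634 in the 9 libraries, 74 to 216 in microglia and 3188 to 5537 in spleen. With spleen alone as the reference 14 of the 15 red pulp genes were called lower, and with microglia alone 3 were called lower and 8 higher. With microglia alone all 17 microglial genes were called lower, and with spleen alone 2 were lower and 8 higher. The list medians of both sets therefore follow the reference chosen. Of the separated genes themselves, 300 of the 337 higher and 167 of the 196 lower ones were called against spleen alone, and 321 and 170 against microglia alone. Separation already placed these genes beyond every library of each reference, so these counts are no independent check.

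**Figure D4:**
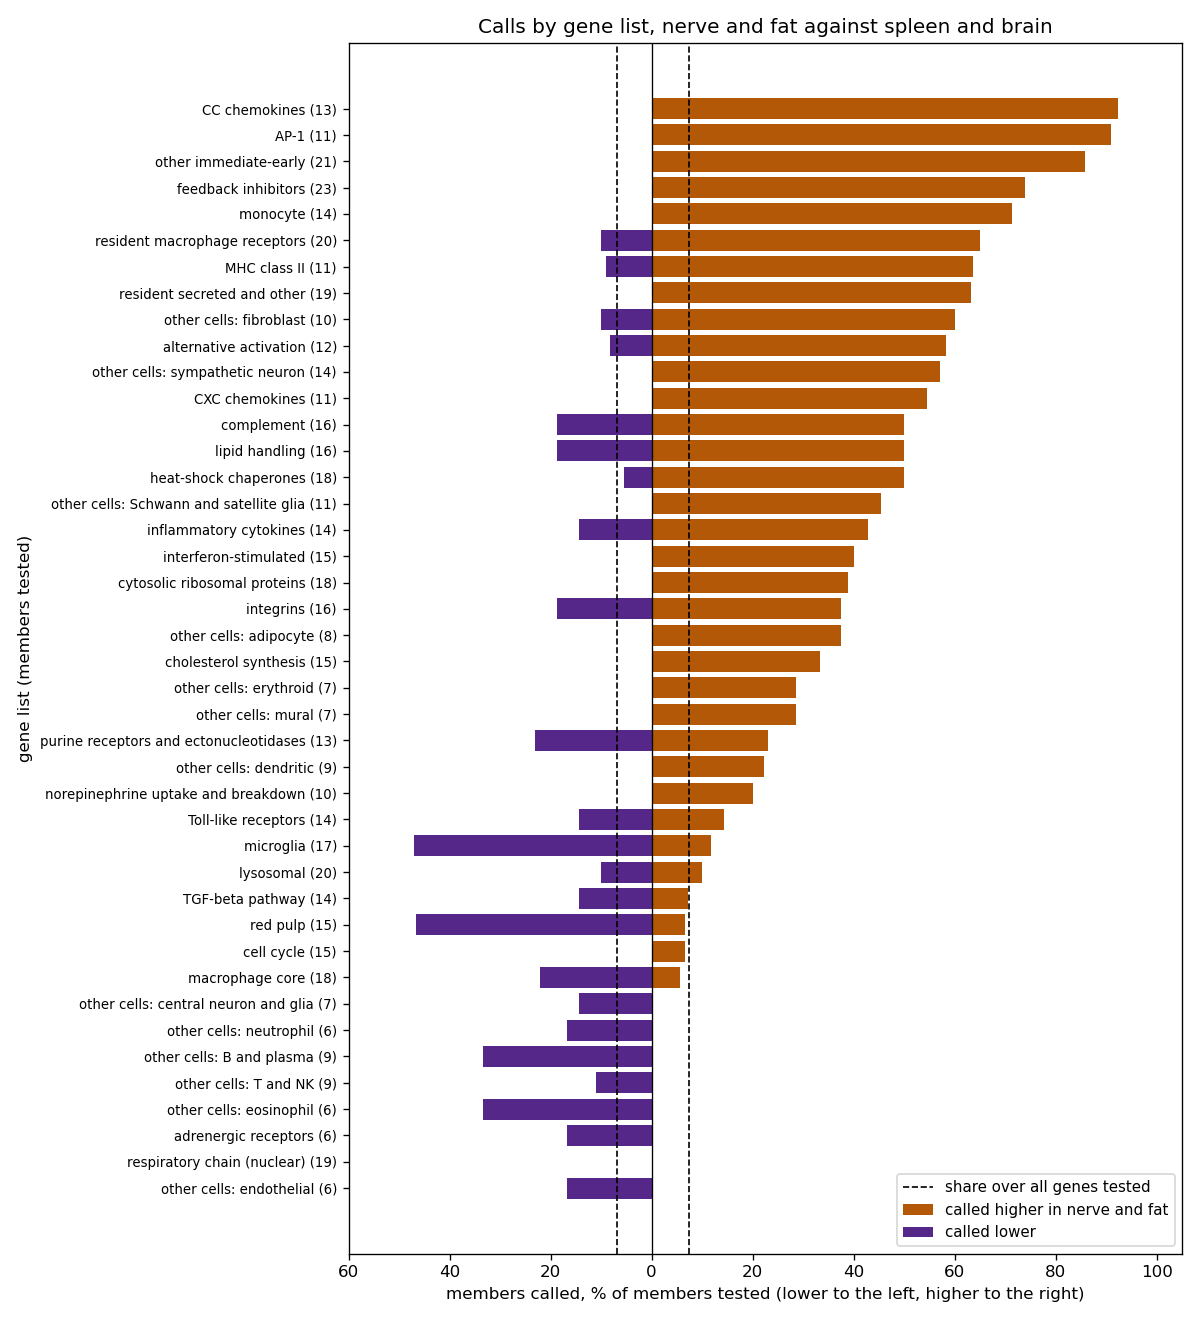
Share of the tested members of each gene list called higher (bars to the right) or lower (bars to the left) in nerve and fat against spleen and brain, in percent of members tested, for lists with at least 5 tested members (numbers in brackets). Dashed lines mark the shares over all genes tested, 7.4% higher and 6.89% lower; CC chemokines, AP-1 and other immediate-early genes reach farthest to the right, and microglial and red pulp genes farthest to the left.

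Signalling receptors gave mixed counts. Of 14 genes of the TGF-beta pathway, which microglia depend on, 1 rose (7.14%) and 2 fell (14.3%). Over all genes tested the shares were 7.4% and 6.89%. The receptor gene Tgfbr1 fell (-2.20 ± 0.26), at 13.6 to 191 CPM by group mean against 752 in microglia and 71.2 in spleen, and the feedback inhibitor Smad7 fell (-1.12 ± 0.31), though against spleen alone it changed by 0.84. The corepressor gene Tgif1 rose by 1.48 ± 0.21. Of 13 purine receptor and ectonucleotidase genes, 3 rose and 3 fell (23.1% each). P2ry6, a receptor for UDP, was called higher (2.71 ± 0.28) with 232 CPM in microglia and 1.11 in spleen, and Entpd1, the ectonucleotidase CD39, was separated lower (-2.15 ± 0.17). Of 14 Toll-like receptor genes, 2 rose and 2 fell (14.3% each). Tlr8 (1.91 ± 0.30) and Tlr5 (1.77 ± 0.50) were the higher pair, and Tlr4, which senses bacterial lipopolysaccharide, fell (-1.19 ± 0.21). The other that fell was Tlr3, at raw counts of 20 to 335 in the 9 libraries, 163 to 310 in spleen and 319 to 944 in microglia.

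Of 16 integrin genes tested, 6 rose and 3 fell. Itgb7 (3.11 ± 0.28) and Itga5 (2.55 ± 0.36) were separated higher, Itgam, which encodes CD11b, rose (1.86 ± 0.24) from 4.5 CPM in spleen but stood at 353 CPM in microglia, and Itgb5 fell (-2.30 ± 0.18). Itga9, listed at 0 in both fat groups, fell as well, and its raw counts were 4001 to 9708 in the nerve groups and sATM, 10785 and 11254 in vATM, 18074 to 31929 in spleen and 4203 to 11975 in microglia. Of 16 complement genes, 8 rose and 3 fell, with 5 higher and 5 lower against spleen alone and 6 and 4 against microglia alone. The receptors C5ar1 (3.20 ± 0.24) and C3ar1 (3.13 ± 0.29) rose, and C1qa (-1.02 ± 0.23) and C1qc (-1.31 ± 0.23), subunits of the first component, fell.

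Of 15 interferon-stimulated genes, 6 rose and none fell, with a median log2 change of 0.95. Against spleen alone 1 was called higher and 2 lower (median 0.25), and against microglia alone 7 were higher and none lower (median 1.56). Oasl2, an antiviral gene, was separated (2.71 ± 0.54), while Usp18 (1.16 ± 0.29) and Rsad2 (1.08 ± 0.27) rose less, and Rsad2 changed by -0.42 against spleen alone. On the raw counts Usp18 changed by -0.10.

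In lipid handling, 8 of 16 genes rose and 3 fell, with 4 higher and 5 lower against spleen alone and 9 and 5 against microglia alone. Apoe, the apolipoprotein of macrophages, rose by 2.36 ± 0.22, with 16928 to 32570 CPM in ganglia, 10066 and 11191 in fibers, 3245 and 5132 in sATM and 5761 and 7623 in vATM, with 4384 to 5678 for spleen and 465 to 899 for brain. Fat and spleen overlapped. The lipid droplet gene Plin2 (2.59 ± 0.24) and Lpl, lipoprotein lipase (2.28 ± 0.44), rose without separation, and the cholesterol exporter gene Abcg1 fell (-2.35 ± 0.24). Of 15 genes of cholesterol synthesis, 5 rose and none fell, among them Srebf2 (1.35 ± 0.30) and Sqle (1.16 ± 0.35). Of 20 lysosomal genes, 2 rose and 2 fell, 10% each and near the 7.4% and 6.89% over all genes tested. Ctsa rose (1.29 ± 0.23), Ctsl (-1.62 ± 0.21) and Ctsd fell, and Atp6v0d2, listed at 0 in microglia, had raw counts of 9 to 327 there and 9 to 929 in the 9 libraries.

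Lists of basic cell function gave different counts. Of 19 nuclear genes of the respiratory chain none was called by edgeR in either direction, with Cox4i1 at 0.69 ± 0.17 and Atp5b at 0.49 ± 0.17. Of 18 cytosolic ribosomal protein genes 7 rose and none fell, with a median of 0.99. They lie near the threshold of 1, as with Rps24 (1.28 ± 0.18), Rpl32 (1.17 ± 0.16) and Rpl8 (1.12 ± 0.17), and another scaling (RLE) called 12 of them higher. Against microglia alone 13 of the 18 were called higher, against spleen alone 2, and on the raw counts, where 20 were tested, none by edgeR. Of 15 cell-cycle genes 1, Mki67, rose (1.65 ± 0.49), 6.67% of the list against 7.4% of all genes tested.

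The title of the series concerns norepinephrine, the transmitter of sympathetic nerves. Of 10 genes of its uptake and breakdown that passed the filter, 2 rose and none fell. That is 20% higher, against 7.4% over all genes tested. Maoa, a monoamine oxidase, rose by 4.17 ± 0.68, with 14.4 CPM in ganglia, 16.9 in fibers, 2.36 in sATM, 7.83 in vATM, 0.129 in spleen and 1.64 in microglia. Aldh2 rose by 1.52 ± 0.33 and stood at 33.9 CPM in spleen, inside the range of 25 to 43.3 of the 4 group means. Of 6 adrenergic receptor genes tested, Adrb1 fell (-1.52 ± 0.30) and the others were not called. That is 16.7% lower, against 6.89% over all genes tested.

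Nerve and fat were compared within the same model, to see where the shared program is unequal. Over all genes, 1027 of 15289 differed among the 4 groups (6.72%), 456 were higher in nerve than in fat (2.98%) and 533 were higher in fat (3.49%). These counts depended on single libraries: they were 503 among the 4 groups and 404 between nerve and fat without vATM 1, 507 and 379 without vATM 2, and 3056 and 2965 without SAM_fibers 2. Without sATM 2 the count between nerve and fat was 547. Of the 337 separated higher genes, 101 (30%) differed among the 4 groups, 41 were higher in nerve and 49 higher in fat. The share differing among the 4 groups was 26% of all genes called higher and 28.1% of all called lower. Median levels were 41.1 CPM for the separated higher genes and 6.69 over all genes tested, so their detection differs.

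More immediate-early and inflammatory members were called higher in nerve than higher in fat. Among other immediate-early genes it was 9 of 21 and none, and among AP-1 genes 5 of 11 and 1. The other immediate-early list summed to 10593 to 14837 CPM in fibers and 2405 to 3468 in ganglia. Fat overlapped with ganglia, at 1917 to 2899 CPM in sATM and 1839 to 2632 in vATM. The AP-1 sums were 5941 to 8049 CPM in ganglia, 13274 to 18429 in fibers and 3236 to 5272 in fat. Egr1 was higher in nerve by 2.90 on the log2 scale (edgeR adjusted p = 4.83e-05). It had 352 CPM in ganglia, 3613 in fibers, 123 in sATM and 185 in vATM. Dnajb1 differed by 2.46, Il1b by 2.43, Ccl4 by 2.98, Cxcl1 by 2.85 and Ccl12 by 4.07. Among feedback inhibitors 12 of 23 were higher in nerve and none in fat, and among inflammatory cytokines 5 of 14 and none. The fibers were the highest group in 11 of those 12 and in all 5 of those cytokines. Nfkbiz, for example, had 268, 1804, 232 and 226 CPM in ganglia, fibers, sATM and vATM.

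Other members were higher in fat, some of them from the same lists, as with Batf3 of AP-1 (-1.64). Retnla differed by -5.71 (edgeR adjusted p = 9.51e-05), Lyz1 by -5.56, the extracellular matrix gene Fn1 by -4.50 and Lpl by -3.05. The lectin gene Cd209f differed by -7.40, with 0.375 CPM in ganglia, 1.64 in fibers, 77.5 in sATM and 231 in vATM. The chemokines Ccl6 (-2.74), Ccl8 (-2.55) and Ccl9 (-2.01) were higher in fat, while Ccl3, Ccl4, Ccl7 and Ccl12 were higher in nerve. Members that rose without a called nerve and fat difference include Hspa1a (0.65 ± 0.26), Mgl2 (-0.33), Cd36 (-0.24), F13a1 (-0.92), Pf4 (0.73), Sema4a (-0.26) and the MHC class II genes H2-Eb1, H2-Aa and Cd74. Of the 11 listed MHC class II genes, 1 was called higher in nerve and 1 higher in fat. Sema4a, a semaphorin gene, was 88.6 to 148 CPM in all 9 libraries and 0 to 3.5 in the 6, the narrowest spread among the 15 widest margins.

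**Figure D5:**
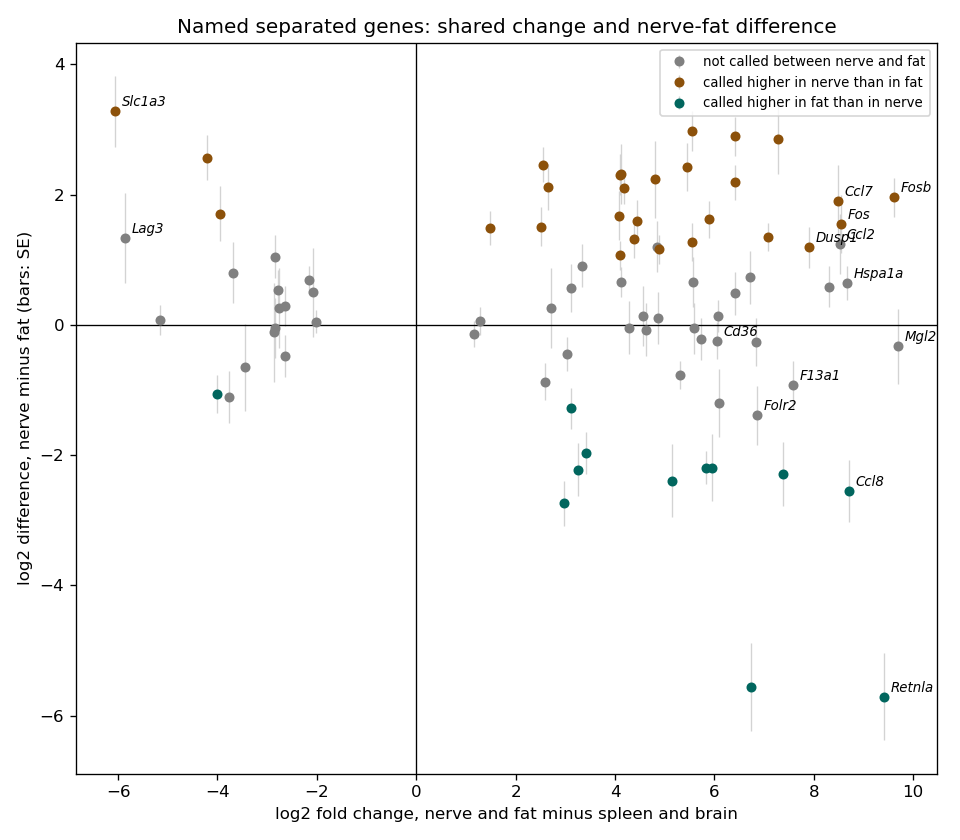
For 84 named separated genes, the log2 difference between nerve and fat (vertical axis, bars are SE) is plotted against the log2 fold change of nerve and fat over spleen and brain (horizontal axis). Brown points (28) were called higher in nerve, green points (12) higher in fat and grey points (44) neither; Retnla lies lowest, at -5.71, with a shared change of 9.41.

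Markers of other cells that a gate on F4/80 and CD45 could carry along were read in the same libraries. Of 14 sympathetic neuron genes tested, 8 rose and 10 were higher in nerve than in fat. Their summed level was 134 to 192 CPM in ganglia, 375 to 915 in fibers, 25.1 to 77.2 in sATM and 5.04 to 14.1 in vATM, with 5.47 to 7.61 for spleen and 28.4 to 38.6 for brain. Npy (2.75 ± 0.30), Uchl1 (3.43 ± 0.47), Stmn2 (2.17 ± 0.38) and Dbh, which makes norepinephrine (3.61 ± 0.70), are examples, and none of the list was separated. Of 11 Schwann and satellite glia genes, 5 rose, among them Mbp (2.38 ± 0.61), Apod (3.01 ± 0.63) and Pmp22 (2.48 ± 0.28). Their sums were 212 to 364 CPM in ganglia, 724 and 725 in fibers, 79.2 to 207 in fat, 5.07 to 15.4 in spleen and 344 to 396 in microglia. With the fat groups alone none of the neuron genes and 1 of the glial genes was called higher. In the same setting 7 of 10 fibroblast genes (median 3.32) and 4 of 8 adipocyte genes (median 3.94) were called higher and none lower.

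Fibroblast genes did separate. Of 10 tested, 6 rose and 1 fell, and Dcn (4.80 ± 0.59), Col1a2 (4.12 ± 0.45), Col3a1 (3.89 ± 0.65) and Gsn (3.03 ± 0.24) were separated. Dcn was at 26.2 CPM in ganglia, 84.2 in fibers, 7.43 in sATM, 13 in vATM, 0.414 in spleen and 1.51 in microglia. The sum of the list was 97 to 148 CPM in ganglia, 239 to 317 in fibers, 92.2 to 169 in fat and 16.3 to 31.1 in spleen and brain, with Pdgfra among the members that did not pass the filter. Of 8 adipocyte genes 3 rose, Cfd (4.91 ± 0.88), Car3 (4.52 ± 0.85) and Adipoq, which was listed at 0 in spleen, and the list summed to 37.4 to 102 CPM in the 9 libraries and 33.7 to 70.2 in the 6. Of 7 mural genes 2 rose, Rgs5 and Des, both listed at 0 in spleen, at sums of 4.16 to 27.5 CPM against 2.16 to 9.73. The shares called higher were 37.5% of adipocyte and 28.6% of mural genes, against 7.4% over all genes tested. The part that carried-over RNA of these cells has in the shared program was not tested.

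Of 7 erythroid genes 2 rose, the near-identical copies Hba-a1 (1.16 ± 0.32) and Hba-a2 (1.16 ± 0.32), between which reads cannot be divided with certainty. The list summed to 642 to 898 CPM in ganglia, 1663 and 4640 in fibers, 25.2 to 372 in fat, 215 to 662 in spleen and 94.6 to 142 in microglia, and with the fat groups alone Hba-a1 changed by -0.86 and Hba-a2 by -0.87. Of 9 dendritic cell genes 2 rose, Cd209a and Batf3. The shares called higher were 22.2% for the dendritic and 28.6% for the erythroid list, against 7.4% over all genes tested. The dendritic list shares Siglech with the microglial list. It summed to 129 to 500 CPM in the 9 libraries, 79.3 to 103 in spleen and 894 to 1433 in microglia. Flt3 (2.15 ± 0.85) and Zbtb46 (1.72 ± 0.87), which define dendritic cells, were not called.

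No listed lymphocyte or granulocyte gene was called higher with the 4 groups together. Of 9 T and NK cell genes 1, Cd4, fell, 11.1% against 6.89% over all genes tested. The list summed to 3.33 to 21.8 CPM in the 9 libraries, 20.3 to 35.1 in spleen and 2.89 to 6.74 in microglia. Of 9 B cell genes 3 fell, Cd79b (-1.33 ± 0.20), Cr2 and Jchain, with sums of 13.6 to 52.3 CPM, 114 to 137 in spleen and 24.5 to 51.6 in microglia. Of 6 neutrophil genes 1, Csf3r, fell (-1.37 ± 0.26), and Ly6g, Mpo and Camp did not pass the filter. Sums were 18.9 to 95.9 CPM in ganglia, 123 to 137 in fibers, 26.2 to 58.3 in sATM and 6.58 to 9.09 in vATM. Spleen had 33.3 to 44.6 CPM of the neutrophil list and microglia 99.6 to 123. Of the 6, 3 were higher in nerve than in fat, and with nerve alone 1 was called higher and 0 lower (median 1.66). Of 6 eosinophil genes 2 fell, Siglecf and Ccr3 (-5.20 ± 0.43), and the spleen libraries carried 656 to 914 CPM of that list against 1.85 to 15.2 in the 9. Pecam1, an endothelial gene also found on leukocytes, fell by 3.87 ± 0.53 on the log2 scale, the only one of 6 endothelial genes called. Of 7 genes of central neurons and glia 1, Slc1a3, fell. Of 2 mesothelial genes tested, Krt19 and Upk1b, none was called, nor was Cma1, the 1 mast cell gene that passed the filter.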

How the data were processed

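RNA-seq of total RNA from sorted macrophages was deposited as 3 tables, all used here. The authors deposited raw counts per gene body, estimated counts corrected for DNA reads, and RPKM values. STAR, HOMER and the mm10 build appear in the submitters' processing notes, while versions and strand setting are not stated there. Estimated counts were rounded to whole numbers and fitted with edgeR 4.0.16 (R 4.3.3), using quasi-likelihood tests, TMM scaling (factors 0.668 to 1.4) and the default filter at a minimum count of 10, which kept 15289 genes. All 15 libraries shared 1 model, in which group means were weighted equally, and p-values were Benjamini-Hochberg adjusted over all genes. The fit was tested on simulated data. The common biological coefficient of variation was 0.68. A level of 0.897 CPM corresponds to 3 counts in the smallest library and 0.249 CPM in the largest, for counting error only. Genes were named by rule as the 15 called and separated genes with the widest margins in each direction that reached 30 CPM (higher) or 15 CPM (lower), Adgre1, Ptprc and 4 marker genes, and up to 4 members of each list by smallest p, or 2 by level where none was called. Another 23 genes, the further list members described and the promoter windows printed were chosen after their values were seen. Some genes that the rule names are not reported here. The members and lists were chosen with earlier results of these data known. Alternatives were DESeq2 1.42.0, limma 3.58.1 (voom, and log2 of RPKM plus a pseudocount), raw counts, other scalings, single references, nerve or fat alone, a replicate block and leaving out libraries.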

Additional observations from a re-analysis of the deposited data

Results flagged for a closer look

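Of the genes named in the text, 74 changed by a different amount in nerve than in fat, by the test of that difference in the same edgeR model, with values given as the log2 level in nerve minus that in fat. In 54 the level was higher in nerve. The differences were Dusp1 (1.19), Fosb (1.96), Fos (1.55), Atf3 (1.35), Ccl7 (1.91), Slc1a3 (3.28), Parvg (1.71), Junb (1.07), Egr1 (2.90), Klf2 (1.62), Ier2 (2.10), Dnajb1 (2.46), Hsph1 (1.51) and Zfp36 (1.16). Next came Nfkbid (1.32), Nfkbiz (1.60), Il1b (2.43), Tnf (1.68), Osm (1.75), Ccl3 (2.19), Ccl4 (2.98), Cxcl1 (2.85), Cxcl16 (2.48), Cxcl10 (2.75), Lgmn (1.06), P2ry12 (2.06), P2ry13 (2.57) and Tmem119 (5.47). They also include Gpr34 (2.40), Itgb5 (2.34), Tgfbr1 (2.46), Tgif1 (1.49), Smad7 (2.47), C3ar1 (1.61), Rsad2 (1.73), Apoe (1.68), Adrb1 (2.03), Col1a2 (2.32), Dcn (2.24), Apod (5.61) and Mbp (3.35). Further values were Npy (4.35), Uchl1 (4.40), Stmn2 (4.04), Dbh (4.18), Cd79b (1.32), Hba-a1 (4.04), Hba-a2 (4.05), Jun (1.27), Tnfaip3 (2.12), Socs3 (2.31), Ccl12 (4.07), Stab1 (1.79) and Trem2 (1.90). In 20 the level was higher in fat, with differences of Retnla (-5.71), Plpp1 (-1.06), Ccl9 (-2.01), Clec10a (-2.29), Fn1 (-4.50), S100a4 (-2.19), S100a6 (-2.19), Itgb7 (-1.28), Itgam (-1.21), C4b (-2.22), Abcg1 (-1.70), Ctsa (-1.38), Batf3 (-1.64), Ccl6 (-2.74), Ccl8 (-2.55), Lyve1 (-2.39), Pltp (-1.97), Cd209f (-7.40), Lyz1 (-5.56) and Lpl (-3.05). Reads of Hba-a1 and Hba-a2, near-identical copies, cannot be divided with certainty. No explanation was tested for these differences.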

How the results depend on the processing

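DESeq2 gave 2692 genes differing among the 4 groups and 1775 between nerve and fat. Raw counts gave 320 higher, 186 lower, 135 separated higher, 18 separated lower, 6 among the 4 groups and 44 between nerve and fat. RPKM with a pseudocount of 0.1 gave 1858 lower, 215 and 386 separated higher and lower, and 623 between nerve and fat, and with a pseudocount of 1 it gave 734 higher and 207 and 340 separated. Separated higher and lower genes numbered 765 and 429 with fat alone, 660 and 770 against SpM, and 731 and 810 against Microglia, where fewer libraries must separate, and 304 were separated lower with nerve alone. Without SAM_fibers 1, Microglia 2, SAM_ganglia 3 and SAM_fibers 2, an alternative chosen after seeing the data, 559 and 340 were separated and 557 differed among the 4 groups. Leaving out 1 library at a time gave 964 to 1240 higher, 801 to 2193 lower, 303 to 378 separated higher, 161 to 231 separated lower, 503 to 3056 among the 4 groups and 379 to 2965 between nerve and fat. Apart from the numbers of libraries, the cause was not tested. Directions reversed on raw counts for Usp18 (-0.10) and Hsp90aa1 (3.71), without the fibers for Cd4 (0.05), with fat alone for Hba-a1 (-0.86) and Hba-a2 (-0.87), and with nerve alone for Smad7 (0.11). Against SpM alone they reversed for Ptprc (-1.07), Mrc1 (-0.32), Tmem119 (0.72), Smad7 (0.84), Tlr8 (-0.57), Rsad2 (-0.42) and Aldh2 (-0.06). Against Microglia alone they reversed for Itgam (-1.28), P2ry6 (-1.11), Tlr5 (-0.49), Pmp22 (-0.96), Cd4 (0.38), Fcrls (-1.78) and Trem2 (-3.80). Libraries with the same number had deviations from their group means that correlated at a median r of 0.108 (-0.396 to 0.615). This was over 0.1 in 17 of 33 pairs, against a median of -0.088 for different numbers. In groups of 2 libraries the deviations mirror each other, as with sATM and vATM at 0.217 for both numbers. The pairs are thus not independent, and different numbers are pushed to the opposite sign by construction. The 10 pairs of libraries numbered 1 without SAM_fibers 1 ran from 0.173 to 0.615, and the 5 with it from -0.396 to -0.088, so not every pair correlated and the numbers were not taken to pair the samples. The replicate block gave 1087 higher, 1007 lower, 957 among the 4 groups and 885 between nerve and fat.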

Other observations

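The corrected table lists 69 genes at 0 in every library of at least 1 nerve or fat group although their raw counts per M there exceeded those of all 6 spleen and brain libraries. In 60 of them the group was SAM_fibers alone, whose libraries had olfactory receptor counts of 1171 and 659 per M, and the part of DNA reads in those raw counts was not tested. Of the 69, 9 were called lower, 0 were called higher by edgeR, 33 were not called and 27 did not pass the filter. In 9 of the 69, among them Hsp90aa1, Cxcl2, Ptp4a1, Anxa11 and Slc5a3, the raw counts per M of all 9 nerve and fat libraries were above those of all 6 others. Over all calls, 259 of the 1053 lower genes and 77 of the 1131 higher genes had at least 1 whole group listed at 0. The mean raw counts per M had the direction of the call in 335 of the 337 separated higher genes and in 195 of the 196 separated lower ones. Direction alone is a weaker measure than the call. In the edgeR fit to raw counts, 178 of those 337 genes were still called higher and 102 were still separated. Of the 196 lower ones, 57 were still called and 8 were still separated.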
